A study of Mus musculus with 6 samples.

Results

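The genes of sterol synthesis, uptake and regulation were compared between dDAVP and vehicle in clone 11 of mpkCCD, an immortalised mouse kidney line of cortical collecting duct origin. The set was a fixed list of 32 genes grouped by function, chosen with earlier results of these data known. Each gene was read on its brightest probe set among those that name that gene alone, a probe set being a group of probes on the array that report 1 transcript. On this rule 28 of the 32 were measured, out of 12364 genes on the table, while Acat2, Soat1, Abca1 and Nr1h2 were not analysed here. The dDAVP group was 3 Affymetrix mouse arrays of total RNA from cells given 0.1 nM dDAVP for 5 days, and the vehicle group was 3 arrays of cells given vehicle alone for 5 days. dDAVP (desmopressin) is an analog of vasopressin that acts through the V2 receptor. In both groups the cells were a polarized layer on a membrane support, treated after the resistance across the layer had reached 5 kohm per cm2, and all came from 1 clone of the line. The labels call the arrays biological replicates without saying whether they were separate passages or days, so the p-values cover the spread among these 6 samples, which may be technical.

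Cholesterol is built from acetyl units through mevalonate, isoprenoid chains, squalene and lanosterol, and the mevalonate route also supplies the lipid anchors of small GTPases, dolichol and ubiquinone. When sterol in the endoplasmic reticulum falls, SCAP escorts the SREBP transcription factors to the Golgi, where they are cut and released to turn on most genes of the route, and INSIG proteins hold SCAP back when sterol is plentiful. In the collecting duct, cholesterol-rich patches of the apical membrane are among the places where the water channel aquaporin 2 resides and from which it is taken up again.

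As a check of the labels, Aqp2, which encodes that channel, measured 10.93, 10.79 and 10.82 log2 units in dDAVP cells, against 6.65, 6.72 and 6.72 in vehicle cells, a 17.8-fold rise (limma adjusted p = 1.66e-07). The medians of the arrays spanned 0.043 log2 units, and any pair of arrays correlated at 0.996 to 0.998 across probe sets. Of 10 principal cell markers Aqp2, Avpr2 and Fxyd4 were called higher. Over the 10, 7 differences were positive and 3 negative, those of Gata3 (-0.08), Hsd11b2 (-0.04) and Elf5 (-0.0049). The summed linear signal of the list was 5744 to 6117 in dDAVP arrays, against 3662 to 3750 in vehicle arrays. Aqp2 made up most of that difference. The principal cell factor Elf5 averaged 3.74 in dDAVP and 3.75 in vehicle cells, close to the highest of the 10 olfactory receptor probe sets used as a dim reference (2.51 to 3.74). The endothelial marker Cdh5 and the leukocyte marker Ptprc lay inside that range on average, at 3.09 and 3.32 in dDAVP cells and at 3.11 and 3.11 in vehicle cells, as did the fibroblast marker Col1a1 at 3.65 in dDAVP and 3.61 in vehicle cells. Of markers of other kidney cells, Atp6v1b1, the 1 of 5 intercalated cell genes measured, averaged 7.48 in dDAVP and 7.15 in vehicle cells (adjusted p = 0.153) and the proximal tubule gene Lrp2 8.25 in dDAVP and 8.35 in vehicle cells (adjusted p = 0.820). Lrp2, Col1a1 and Cdh5 were the single measured genes of their lists. Of the leukocyte genes 2 of 3 were measured, with a summed signal of 58.1 to 64.1 in dDAVP and 49.4 to 55.4 in vehicle arrays, and Cd68 (5.65 in dDAVP and 5.46 in vehicle cells) had an adjusted p of 0.593. Of the 5 general collecting duct epithelium genes 3 had a positive and 2 a negative difference. Of these 5, 0 were called, where 0.259% of all genes were called higher and 0.0324% lower. The keratins Krt19 (0.24, adjusted p = 0.281) and Krt18 (0.13, adjusted p = 0.632) had the lowest p. Cdh1 (-0.13, adjusted p = 0.780) and Epcam (-0.01) were the negative ones. The summed signal of this list was 33066 to 33848 in dDAVP and 31385 to 32254 in vehicle arrays. The part of other cell types in the values below was not tested, and in bulk RNA fewer cells of a type and less RNA per cell cannot be told apart.

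Promoters are shown for some of the genes below. SREBP factors are known to act on promoters of sterol genes together with NF-Y, which binds CCAAT. Binding to the stretches shown was not measured. RefSeq promoter windows (GRCm38.p6, 250 bases before to 50 after a gene's start) were held for 23 of the 28 measured genes, in 31 windows. The search used TCACNCCAC, a form of the sterol regulatory element, CCAAT, the Sp1 site GGGCGG and TGACGTCA, the full form of the cAMP response element. Each was sought on both strands. No hits of different motifs overlapped in these windows (0 pairs). TCACNCCAC was found for Hmgcs1 alone (1 of 23 genes, 4.35%), against 1.44% of all 27025 genes with a window. CCAAT was found for 22 of 23 genes (95.7%), against 41.1% of all genes and 42.8% of the 10042 genes with a window that were also on this table. Counted by window, 74.2% of the 31 held CCAAT, against 37.4% of all 32851 windows. GGGCGG was found for 91.3% of the genes, against 67.4% of genes on this table. TGACGTCA was found for 0 of 23 genes, against 3.52% of genes on this table, and shorter forms of that element were not searched. Scap was the 1 gene with a window but no CCAAT.

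The 250 bases before the start are given for Hmgcs1 (chr13:119690101-119690350, plus strand), which holds TCACNCCAC, and for 3 genes with an unadjusted p below 0.05, chosen after their values were seen: Mvd (chr8:122443423-122443672, minus strand), Tm7sf2 (chr19:6067851-6068100, minus strand) and Hsd17b7 (chr1:169969206-169969455, minus strand). Each reads 5′ to 3′ along its gene, and capitals mark TCACNCCAC and CCAAT, the second reading ATTGG where it lies on the other strand.
Hmgcs1: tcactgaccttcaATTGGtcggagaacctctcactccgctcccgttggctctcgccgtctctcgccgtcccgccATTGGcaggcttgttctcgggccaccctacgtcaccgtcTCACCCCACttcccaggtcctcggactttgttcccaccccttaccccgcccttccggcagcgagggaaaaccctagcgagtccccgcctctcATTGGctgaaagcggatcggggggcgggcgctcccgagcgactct
Mvd: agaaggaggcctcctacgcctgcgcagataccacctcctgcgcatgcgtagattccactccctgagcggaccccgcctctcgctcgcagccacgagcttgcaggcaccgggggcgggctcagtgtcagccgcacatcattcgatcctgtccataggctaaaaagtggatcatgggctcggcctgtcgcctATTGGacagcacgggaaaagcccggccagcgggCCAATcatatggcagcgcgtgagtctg
Tm7sf2: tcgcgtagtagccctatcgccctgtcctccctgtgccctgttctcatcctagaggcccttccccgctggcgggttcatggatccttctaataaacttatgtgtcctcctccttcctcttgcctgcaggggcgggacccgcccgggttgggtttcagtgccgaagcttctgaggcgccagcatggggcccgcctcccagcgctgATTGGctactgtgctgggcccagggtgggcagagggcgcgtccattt
Hsd17b7: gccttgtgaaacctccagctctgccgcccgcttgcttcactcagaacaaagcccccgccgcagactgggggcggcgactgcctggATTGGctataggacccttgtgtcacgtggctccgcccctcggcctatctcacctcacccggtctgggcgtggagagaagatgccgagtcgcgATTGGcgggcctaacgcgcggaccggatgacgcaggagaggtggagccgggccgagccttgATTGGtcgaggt
In Hmgcs1 the sterol element begins at position -137 relative to the start, and inverted CCAAT boxes begin at -237, -176 and -45. Mvd holds boxes at -60 and -27, Tm7sf2 a single inverted box at -47, and Hsd17b7 inverted boxes at -165, -73 and -12. A match is a description of letters, not of a bound site.

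After 5 days of dDAVP no sterol gene passed the test, and most of them measured slightly more than in vehicle cells. In limma 0 of the 28 genes passed a Benjamini-Hochberg adjusted p of 0.05 in either direction, where 0.259% of all genes were called higher and 0.0324% lower. The lowest adjusted p was 0.479, for Mvd. At an unadjusted p below 0.05, 4 genes were higher (14.3%, against 5.51% of all genes) and 0 lower (against 2.3%). The difference, dDAVP minus vehicle, was positive in 23 of 28 genes (82.1%, against 55.4% of all genes), and its median was 0.08 log2 units, against 0.01 over all genes. All 3 dDAVP arrays lay above all 3 vehicle arrays in 8 genes (28.6%, against 10.1% of all genes) and below them in 0 (against 5.13%). The differences ran from -0.09 to 0.23, where the 5% and 95% quantiles of all genes were -0.15 and 0.20, and Mvd and Stard4 lay above the upper one. Each gene's 95% interval stayed between 0.808-fold and 1.34-fold.

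**Figure D1:**
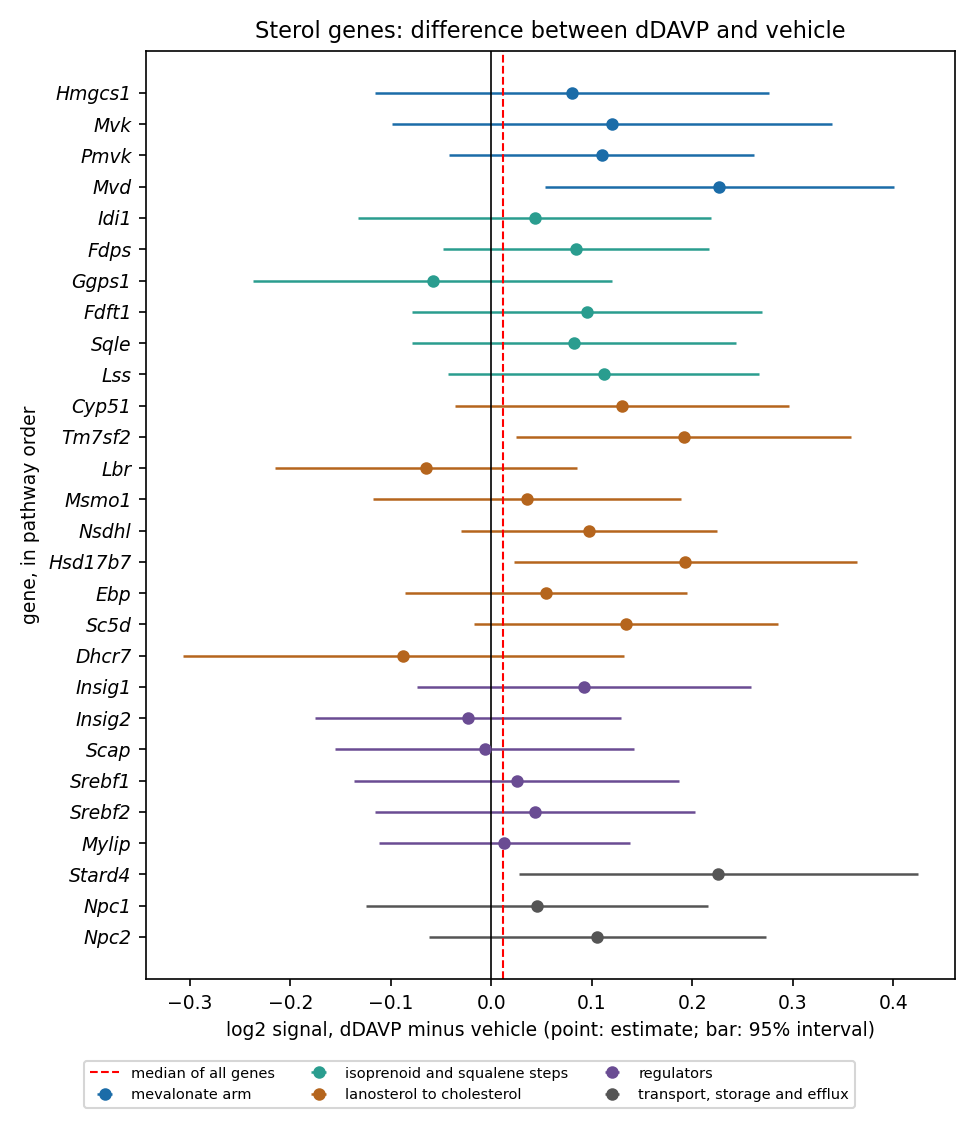
Difference in log2 signal, dDAVP minus vehicle (x axis), for the 28 measured sterol genes in pathway order (y axis), with the estimate as a point and the 95% interval of the limma fit as a bar, coloured by stage. The dashed line is the median of all genes, 0.01, and 4 intervals lie clear of 0, those of Mvd, Tm7sf2, Hsd17b7 and Stard4.

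The mevalonate arm held 4 measured enzymes, all with a positive difference and a median of 0.12. Hmgcs1, which joins acetoacetyl-CoA and acetyl-CoA, measured 10.91, 10.83 and 10.87 in dDAVP cells, against 10.94, 10.80 and 10.63 in vehicle cells. The groups overlapped, since vehicle replicate 1 was the highest of the 6 arrays, and the difference was 0.08 ± 0.085 (SE, adjusted p = 0.893). Without vehicle replicate 3 the Hmgcs1 difference was -0.00076. Mvk, which puts the first phosphate on mevalonate, differed by 0.12 ± 0.094. Pmvk, the next kinase, measured 8.19, 8.24 and 8.31 in dDAVP cells, against 8.18, 8.17 and 8.05 in vehicle cells. The Pmvk groups did not overlap, by a gap smaller than the spread within either group, and the difference was 0.11 ± 0.065 (adjusted p = 0.757). Mvd, the decarboxylase that makes isopentenyl diphosphate, measured 7.34, 7.39 and 7.36 in dDAVP cells, against 7.16, 7.25 and 6.999 in vehicle cells. All dDAVP arrays of Mvd lay above every vehicle array, vehicle replicate 3 being the lowest. The Mvd difference was 0.23 ± 0.075 or 1.17-fold (95% interval 1.04 to 1.32, unadjusted p = 0.0170, adjusted p = 0.479), and between 0.16 and 0.28 with 1 array left out.

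The isoprenoid and squalene steps gave 5 positive differences and 1 negative, with a median of 0.08. Idi1, the isomerase of isopentenyl diphosphate, differed by 0.04 ± 0.076 and overlapped. Without vehicle replicate 2 the Idi1 difference was -0.0147. Fdps, which builds farnesyl diphosphate, measured 11.24, 11.29 and 11.20 in dDAVP cells, against 11.14, 11.16 and 11.18 in vehicle cells. The Fdps groups were narrow and did not overlap, yet the difference was 0.08 ± 0.057 (adjusted p = 0.801). Ggps1, whose product geranylgeranyl diphosphate leaves the sterol route for protein prenylation, had the negative value, -0.06 ± 0.077 (adjusted p = 0.922), which was positive (0.09) when arrays were scaled to their hybridisation controls. That scaling raised every gene by the same amount and moved the median of all genes to 0.16. Fdft1, squalene synthase, differed by 0.10 ± 0.075. Sqle, the squalene epoxidase that is a rate-limiting step, measured 9.69, 9.68 and 9.58 in dDAVP cells, against 9.56, 9.66 and 9.48 in vehicle cells. Sqle overlapped between the groups, with a difference of 0.08 ± 0.070 (adjusted p = 0.858). Lss, which closes the rings to make lanosterol, measured 8.26, 8.33 and 8.25 in dDAVP cells, against 8.21, 8.23 and 8.07 in vehicle cells. The Lss groups did not overlap, and the difference was 0.11 ± 0.067 (adjusted p = 0.759).

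From lanosterol to cholesterol 9 enzymes were measured, 7 with a positive and 2 with a negative difference (median 0.10). Of these 9, 4 were higher without overlap, where 10.1% of all genes were, and the whole list held 8 such genes. Cyp51, the lanosterol demethylase, differed by 0.13 ± 0.072. Its lowest dDAVP array, 9.12, lay below vehicle replicate 1 at 9.14 and above the other two vehicle arrays. Tm7sf2, a sterol C14 reductase, measured 7.18, 7.29 and 7.38 in dDAVP cells, against 7.04, 7.08 and 7.15 in vehicle cells. The Tm7sf2 groups did not overlap, and the difference was 0.19 ± 0.072 or 1.14-fold (unadjusted p = 0.0294, adjusted p = 0.549). Lbr, a nuclear envelope protein that carries the same reductase activity, had a negative difference, -0.06 ± 0.065 (adjusted p = 0.883), which was positive (0.08) under scaling to the hybridisation controls. The difference between the values of the pair was not tested.

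Msmo1, the C4 methyl oxidase, differed by 0.04 ± 0.066. Nsdhl, the dehydrogenase that acts next, measured 8.76, 8.76 and 8.73 in dDAVP cells, against 8.62, 8.68 and 8.65 in vehicle cells. Nsdhl was tight in both groups, which did not overlap (0.10 ± 0.055, adjusted p = 0.738). Hsd17b7, the 3-keto reductase of the same complex, measured 7.91, 7.82 and 7.71 in dDAVP cells, against 7.61, 7.70 and 7.55 in vehicle cells. The gap between dDAVP replicate 3 and vehicle replicate 2 was small, but the Hsd17b7 groups did not overlap, with a difference of 0.19 ± 0.074 or 1.14-fold (unadjusted p = 0.0314, adjusted p = 0.564). Ebp, the sterol isomerase, differed by 0.05 ± 0.061. Sc5d, the C5 desaturase, measured 9.30, 9.33 and 9.20 in dDAVP cells, against 9.20, 9.16 and 9.07 in vehicle cells. The Sc5d groups were separated by a very small gap, and the difference was 0.13 ± 0.065 (adjusted p = 0.682). Dhcr7, the reductase of the final steps, had a negative difference, -0.09 ± 0.095 (adjusted p = 0.896), which was positive (0.06) under scaling to the hybridisation controls. It was -0.0167 without dDAVP replicate 1, -0.0291 without vehicle replicate 2, -0.14 without dDAVP replicate 2 and -0.17 without vehicle replicate 3.

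**Figure D2:**
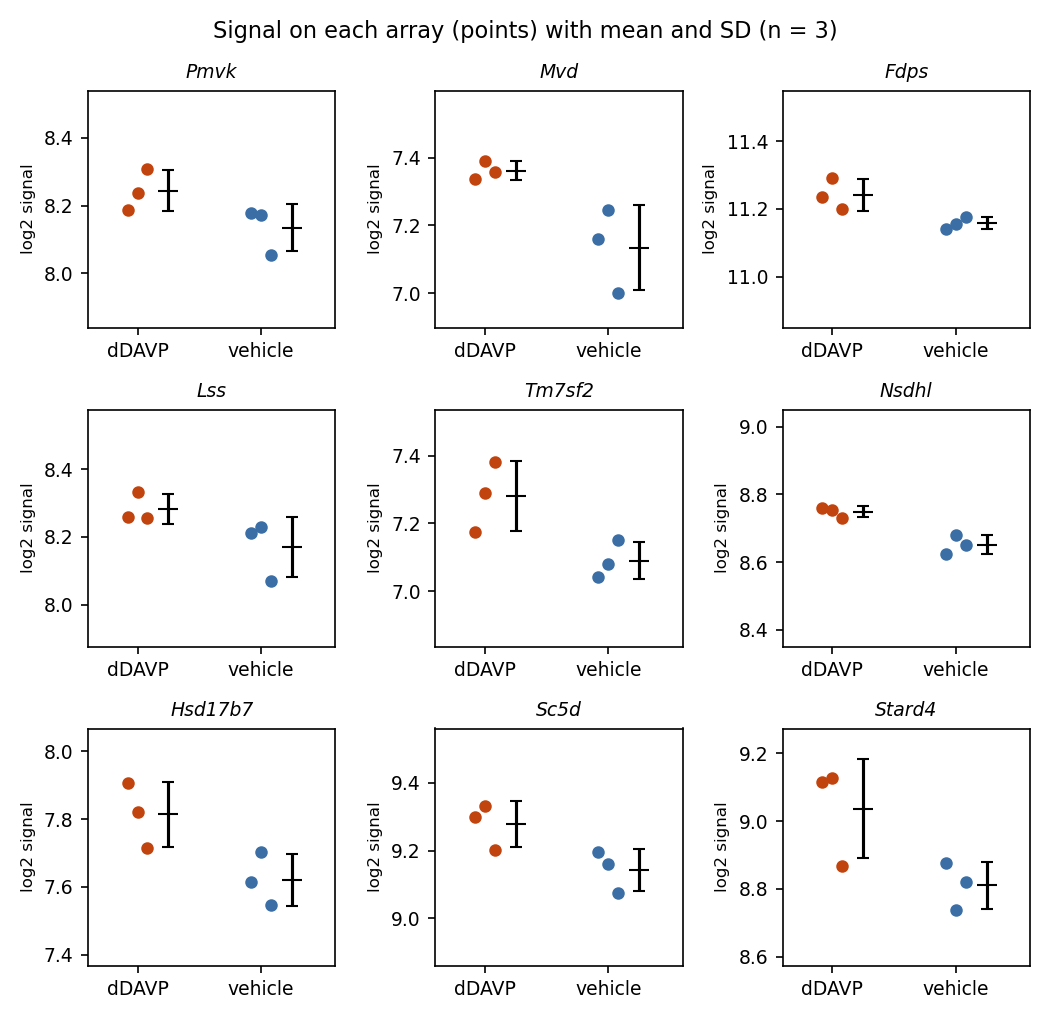
Log2 signal (y axis) on each dDAVP array and each vehicle array (points, x axis) for the 8 sterol genes whose groups did not overlap and for Stard4, with the group mean and SD beside them (n = 3). All panels span the same height, and the dDAVP points of Stard4 show 1 array, replicate 3 at 8.87, among the vehicle values.

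The regulators had the stage median closest to 0, 0.02, with 4 positive and 2 negative differences. On the chosen probe sets 0 of 6 genes had groups that did not overlap. Over all genes 10.1% were higher and 5.13% lower without overlap, and 6 genes are too few to set apart from these shares. Insig1, an SREBP target that retains SCAP in the endoplasmic reticulum, measured 7.98, 7.82 and 7.96 in dDAVP cells, against 7.91, 7.76 and 7.83 in vehicle cells. Insig1 overlapped, with dDAVP replicate 2 below vehicle replicates 1 and 3, and differed by 0.09 ± 0.072 (adjusted p = 0.842). Insig2, its paralog, differed by -0.02 ± 0.066 and Scap, the escort itself, by -0.01 ± 0.064, both positive (0.12 and 0.14) under scaling to the hybridisation controls. Srebf2, which encodes the SREBP that chiefly drives sterol genes, measured 9.72, 9.83 and 9.81 in dDAVP cells, against 9.73, 9.84 and 9.67 in vehicle cells. The Srebf2 groups overlapped over most of their range, and the difference was 0.04 ± 0.069, with a 95% interval of 0.923-fold to 1.15-fold. Srebf1, whose products lean towards fatty acid genes, differed by 0.03 ± 0.070, and by -0.0272 without vehicle replicate 3. Mylip, the ubiquitin ligase that removes lipoprotein receptors, differed by 0.01 ± 0.054, and by -0.01 when arrays were scaled to their poly-A controls. These are transcript values and do not show how much SREBP was cut or in the nucleus.

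Sterol transport had 3 measured genes. Stard4, a soluble carrier of sterol between membranes and an SREBP target, measured 9.11, 9.13 and 8.87 in dDAVP cells, against 8.88, 8.74 and 8.82 in vehicle cells. The groups overlapped through dDAVP replicate 3, and the difference was 0.23 ± 0.086 or 1.17-fold (unadjusted p = 0.0306, adjusted p = 0.556). Npc1, the late endosomal membrane protein that exports cholesterol taken up with lipoprotein, measured 5.37, 5.29 and 5.13 in dDAVP cells, against 5.23, 5.23 and 5.19 in vehicle cells. The lowest and the highest Npc1 arrays were both dDAVP arrays, and the difference was 0.05 ± 0.073 (adjusted p = 0.938). Without dDAVP replicate 1 the Npc1 difference was -0.0079. Npc2, its soluble partner in the lumen, differed by 0.11 ± 0.072.

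The probe sets left unused by the choice of the brightest give another reading of the same RNA. Of the 28 further probe sets, 24 had a positive and 4 a negative difference. Over all 56, 8 were higher at an unadjusted p below 0.05 (14.3%, against 4.85% of all probe sets) and 0 lower (against 3.13%), and 0 passed after adjustment. Probe sets of 1 gene share its RNA and are not independent. The second Mvd probe set gave 0.22 ± 0.085 and did not overlap between groups either, and the 2 others of Hsd17b7 gave 0.26 ± 0.078 and 0.18 ± 0.080. The chosen sets of these genes carry the suffixes that Affymetrix uses where probes may also match other transcripts, and these others do not. The lowest p of the 56 was that of a dimmer Stard4 set, 0.28 ± 0.065 (adjusted p = 0.261), which measured 8.78, 8.75 and 8.71 in dDAVP cells, against 8.51, 8.52 and 8.36 in vehicle cells. The third Stard4 set gave 0.09 ± 0.12 and overlapped. The dimmest of the 3 Cyp51 sets gave 0.28 ± 0.082 (adjusted p = 0.404). Sc5d and Lss did not overlap on their brightest sets, but their other sets did. These gave 0.06 ± 0.073 and 0.07 ± 0.11 for Sc5d, and 0.08 ± 0.087 and 0.19 ± 0.085 for Lss. Of the 15 genes with several probe sets 11 had the same sign in all, and Idi1, Ggps1, Msmo1 and Insig2 did not. A dimmer Ggps1 set was lower in dDAVP cells without overlap (-0.10 ± 0.066). For Insig2 the brightest set gave -0.02 and the others 0.16 ± 0.072, higher without overlap, and 0.08 ± 0.14, which overlapped. The values named in this paragraph were chosen after they were seen.

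**Figure D3:**
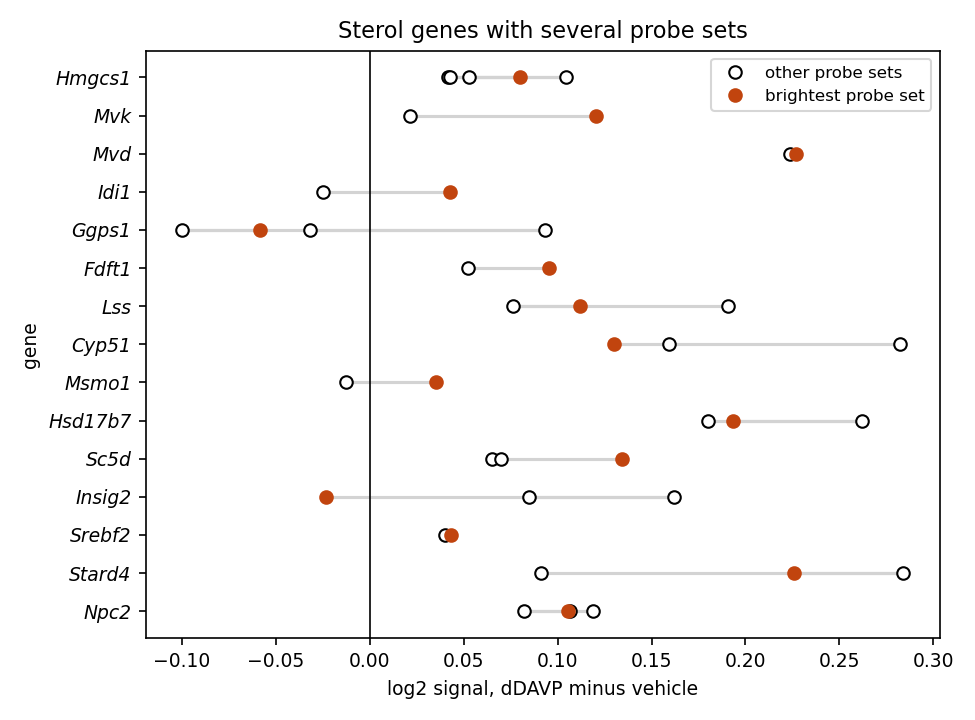
Difference in log2 signal, dDAVP minus vehicle (x axis), of every probe set of the 15 sterol genes that have several (y axis), with the brightest set filled and the others open. Mvd and Hsd17b7 have all sets near 0.2, while the sets of Idi1, Ggps1, Msmo1 and Insig2 lie on both sides of 0.

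The small difference was not spread evenly over the arrays. With each gene set to its mean over the 6 arrays, the median of the 28 genes was 0.03, 0.06 and 0.0061 in dDAVP replicates 1, 2 and 3, against -0.01, -0.02 and -0.07 in vehicle replicates 1, 2 and 3. Over all genes the same medians stayed between -0.02 and 0.01. Vehicle replicate 3 was the lowest array for 13 of the 28 genes and the highest for 0, and dDAVP replicate 2 was the highest for 9. The same counts over all genes are not given here. The SD over vehicle arrays exceeded that over dDAVP arrays in 19 of 28 genes (67.9%, against 56.8% of all genes). Without vehicle replicate 3 the median of the list was 0.06 and 1 gene had an unadjusted p below 0.05. That count was 0 without dDAVP replicate 2, 2 without dDAVP replicate 1 or vehicle replicate 2, 3 without vehicle replicate 1 and 4 without dDAVP replicate 3. The share of all genes at that threshold in these fits is not given here.

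**Figure D4:**
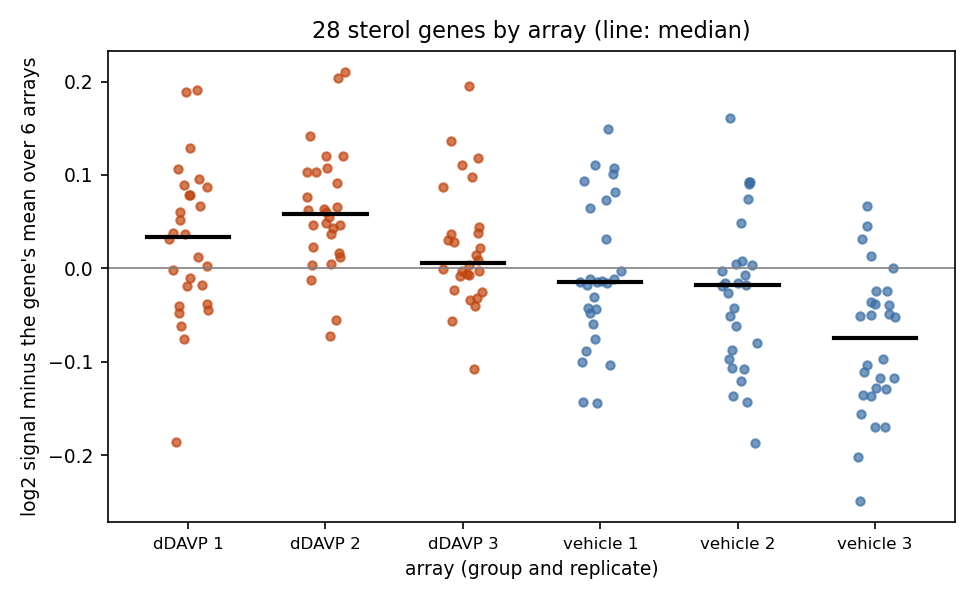
Log2 signal minus the gene's mean over 6 arrays (y axis) for the 28 sterol genes (points) on each array (x axis), with the median as a line. The medians of the dDAVP arrays are 0.0061 to 0.06, and vehicle replicate 3 has the lowest, -0.07.

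Genes of neighbouring pathways were counted in 5 lists, of which 58 of 69 genes were measured. Of these 0 passed the test, where 0.259% of all genes were called higher and 0.0324% lower. Among the 14 fatty acid synthesis genes that SREBP factors also drive, 13 had a positive difference (median 0.11), where 55.4% of all genes did, and 3 were higher at an unadjusted p below 0.05, where 5.51% of all genes were. Me1, the malic enzyme that supplies NADPH, averaged 8.52 ± 0.037 in dDAVP and 8.28 ± 0.023 in vehicle cells (SD, n = 3), a difference of 0.24 ± 0.056 (SE, limma adjusted p = 0.268). Elovl6, which lengthens palmitate, averaged 10.96 ± 0.048 in dDAVP and 10.72 ± 0.066 in vehicle cells (SD, n = 3, limma adjusted p = 0.328). The desaturase Fads2, named after its value was seen, differed by 0.23 ± 0.067. None of these groups overlapped.

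Among 16 further genes of sterol traffic, uptake and storage 11 were positive (median 0.07), where 55.4% of all genes were. Nceh1, which frees cholesterol from its stored esters, differed by 0.24 ± 0.075 (adjusted p = 0.445), and the SREBP target Tmem97 by 0.13 ± 0.063. The 12 genes that process or degrade the SREBP machinery had a median of -0.02, with 4 positive and 8 negative values. Of these 12, 0 had an unadjusted p below 0.05, where 5.51% of all genes were higher and 2.3% lower. The lowest p of the 12 were those of Sec23a (-0.07 ± 0.062) and Sec24a (0.09 ± 0.085), coat proteins of the vesicles that leave the endoplasmic reticulum. The 12 genes that use isoprenoids had a median of 0.03. Of these the Rab prenylation subunit Rabggtb differed by 0.21 ± 0.063 (adjusted p = 0.419) and the geranylgeranyl transferase subunit Pggt1b by -0.10 ± 0.086. Of 10 genes of the oxysterol receptors and their targets 4 were measured (median 0.0098), 2 with a positive and 2 with a negative difference. The 2 with the lowest p were the positive ones, Rxra at 0.11 ± 0.065 and Lpcat3 at 0.07 ± 0.054. No test of these lists against each other or against other genes was made.

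**Figure D5:**
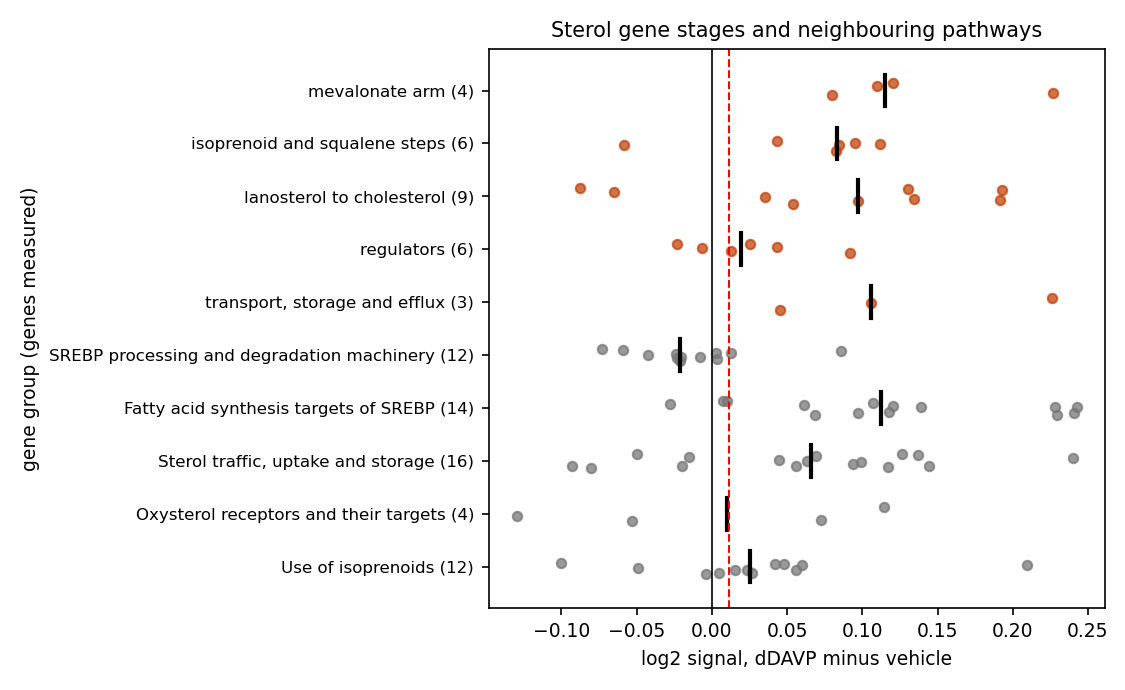
Difference in log2 signal, dDAVP minus vehicle (x axis), of each gene (points) in the 5 stages of the sterol list and in the 5 neighbouring lists (y axis, number of genes measured in brackets), with the median as a line and the median of all genes dashed. The medians run from -0.02 for the SREBP processing machinery to 0.12 for the mevalonate arm.

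The size of these values depends on how the arrays are set against each other. The hybridisation controls, transcripts added with the labelled material, averaged 10.46 ± 0.066 in dDAVP arrays and 10.61 ± 0.080 in vehicle arrays (SD, n = 3), while the poly-A transcripts spiked in before labelling averaged 8.12 ± 0.019 in dDAVP arrays and 8.10 ± 0.10 in vehicle arrays. Scaling to the hybridisation controls moved the median of all genes to 0.16 and that of the sterol genes to 0.23, with all 28 positive, 17 at an unadjusted p below 0.05 and 0 called. Scaling to the poly-A controls gave -0.01 and 0.06, with 22 positive and 1 at an unadjusted p below 0.05. Counts over all genes under these scalings are not given here, so the member counts cannot be read as particular to the sterol genes. Either scaling moves every gene by the same amount, so the distance of the sterol median from that of all genes, 0.07 with 23 of 28 genes above it, is fixed under both. Leaving out an array can move it, and it was 0.05 without vehicle replicate 3, with 19 of 28 genes above, and 0.05 without dDAVP replicate 2, with 22 above.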

How the data were processed

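The table the authors deposited holds log2 signals of 28287 probe sets on 6 arrays, from 2.15 to 14.1. Per the submitters' processing notes MAS5, RMA and Affymetrix Expression Console 1.1 were used, and the sources used here do not say which made these values. They were used as deposited. Such summaries can understate the differences of dim genes, and the number of arrays limits precision.

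Groups came from the sample titles. After 62 control probe sets were set aside, limma 3.58.1 (R 4.3.3, lmFit and eBayes, 4 residual degrees of freedom) compared dDAVP with vehicle over 28225 probe sets, with Benjamini-Hochberg adjustment over all of them and a threshold of 0.05. The code was tested on simulated data whose changes were larger than any sterol gene difference here. That test does not show how well differences as small as those of the sterol genes are found. Genes were named from the platform annotation where a probe set had 1 symbol (23097, against 611 with several and 4517 with none), and all 28 measured members matched RefSeq by Entrez ID. SE and 95% intervals are those of the fit. The deviations of same-numbered arrays from their group means correlated at r = 0.20, 0.05 and -0.05 for numbers 1, 2 and 3. Those of differently numbered arrays ran from -0.21 to 0.17, so the number 1 pair was the highest. The numbers were not taken as pairs in the main fit, and the replicate block is given as an alternative.

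All members are named. Values on every array are given for members called, at an unadjusted p below 0.05 or not overlapping, and for Hmgcs1, Sqle, Insig1, Srebf2 and Npc1 whatever their values (the rule also names Abca1, not analysed here). In other lists every called gene is named, otherwise up to 2 with the lowest p, and further markers as defining genes of their lists. Members, lists, rule and tests were chosen with earlier results of these data known. Alternatives were other scalings, a filter on dim probe sets, other variance priors, the replicate block, each array left out and averaging all probe sets of a gene.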

Additional observations from a re-analysis of the deposited data

How the results depend on the processing

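No sterol gene passed in either direction under any of the 15 alternatives (0 of 28 in each, 0 of 27 with the filter on dim probe sets), so the count of called members kept its value. The 61 probe sets called over the whole table became 282 with scaling to the hybridisation controls, 95 after dim probe sets were dropped, 146 with a trended prior, 24 with the replicate block and 22 to 46 when 1 array was left out. Averaging the probe sets of a gene gives no such count. The 4 members at an unadjusted p below 0.05 became 17 with scaling to the hybridisation controls, 1 with scaling to the poly-A controls and 0 to 4 when 1 array was left out. They were 4 with the replicate block, where 0 members were called, as in the main fit. The share of all genes at that threshold under the alternatives is not given here. The median of the members, 0.08, was 0.23 with scaling to the hybridisation controls and 0.06 to 0.09 when 1 array was left out. Of 419 single-gene values under the alternatives 15 changed sign, in 10 genes. With scaling to the hybridisation controls these were Ggps1 (0.0896), Lbr (0.0829), Dhcr7 (0.0600), Insig2 (0.12) and Scap (0.14), with scaling to the poly-A controls Mylip (-0.0109), and with probe sets averaged Insig2 (0.0746). With 1 array left out the ranges that crossed 0 were those of Ggps1 (-0.13 to 0.0021), Hmgcs1 (-0.00076 to 0.15), Idi1 (-0.0147 to 0.11), Insig2 (-0.0688 to 0.0217), Npc1 (-0.0079 to 0.11), Scap (-0.0345 to 0.0379) and Srebf1 (-0.0272 to 0.0780). The shift under the scalings follows from their construction, and the cause of the other moves was not tested. Npc1, at a mean of 5.24, was the only member below the median level.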
